A study of Homo sapiens with 15 samples.

Results

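Histone genes make up 70 of the 15990 genes named in the deposited tables of an RNA immunoprecipitation sequencing study in 22Rv1 and LNCaP, 2 established human prostate cancer cell lines. They were taken by name alone: every row whose name, after removal of the ending .primary, starts with HIST1H, HIST2H, HIST3H, HIST4H, H2AF, H3F3 or H1F. The 22Rv1 table holds 67 such rows of 22542 (60 genes), the LNCaP table holds 73 of 22169 (63 genes), and 59 row names occur in both. Many genes have 2 rows, 1 with and 1 without the ending .primary, and the sources used here do not say what the ending marks. The rows were sorted into cluster genes (HIST names, 50 rows in 22Rv1 and 55 in LNCaP) and variant genes (H2AF, H3F3 and H1F names, 15 and 16 rows). H1FX-AS1.primary, an antisense RNA, and H3F3AP4, a pseudogene, match the names and were kept apart. HIST2H2BB, HIST2H2BC and HIST3H2BA, which RefSeq also lists as pseudogenes, were counted with the cluster genes by name.

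Each line was fixed in 0.3% formaldehyde for 30 minutes at 4 degrees, and RNA was precipitated with an antibody against Brg1 (Abcam ab110641), the motor subunit of SWI/SNF, encoded by SMARCA4, or with non-specific IgG (Sigma I5006). In 22Rv1 an antibody against Sfpq (Genetex GTX114209), an RNA-binding protein of the nucleus with roles in splicing, was used as well. Input is RNA taken with no antibody and diluted to about the level of the most concentrated precipitate. ERCC spike-in RNA was added in equal volume before libraries were made with a stranded Kapa kit that depletes ribosomal RNA. There were 2 libraries each of Brg1, Sfpq and Input and 3 of IgG in 22Rv1, and 2 each of Brg1, IgG and Input in LNCaP. Cells of both lines came from ATCC and grew in RPMI1640 with 10% serum, and the labels name no knockdown or drug. Nothing says that replicates came from separate cultures, so p-values measure only the spread between these libraries, which may be technical.

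Most replication-dependent histone genes lie in clusters, have no introns, and are transcribed in S phase, when new DNA needs new nucleosomes. Their main mRNAs end in a stem-loop that the protein SLBP binds, and carry no poly(A) tail. Genes were sorted here by name alone, and some with cluster names have long RefSeq spans, such as HIST2H2BF at chr1:149782689-149812370. Variant histones such as H3.3 (H3F3A, H3F3B), H2A.Z (H2AFZ, H2AFV) and macroH2A (H2AFY, H2AFY2) are made throughout the cell cycle from spliced, polyadenylated mRNAs. SWI/SNF slides and evicts nucleosomes, the particles that these proteins build.

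Of the 70 genes, 66 matched exactly 1 RefSeq gene by symbol or synonym. HIST1H2BC, HIST1H2BE, HIST1H2BF and HIST1H2BG did not. Of the 54 cluster genes that matched, 38 lie on chromosome 6, 15 on chromosome 1 and 1 elsewhere. Linker histone H1 and core histone H4 rows took opposite ends of the results below, and their promoters also differ in letters. For this reason 250 bases of the promoter entry are shown for 2 H1 genes and 1 H4 gene. Added is macroH2A1 (H2AFY), 1 of the 2 macroH2A genes, whose .primary rows both rose with Brg1. For the H1 and H4 genes the stretch ends at the start of the RefSeq gene. For H2AFY it lies inside the RefSeq gene, which spans chr5:135334381-135399887. Sequences are from RefSeq on GRCh38.p14, 5′ to 3′ on the gene's strand, and capitals mark matches on either strand to the TATA box, the CCAAT box, the octamer or an element known from H1 promoters, each spelled out after the sequences. They cover chr6:26056471-26056720, minus strand (HIST1H1C, RefSeq H1-2), chr6:26156079-26156328, plus strand (HIST1H1E, RefSeq H1-4), chr6:26027284-26027533, minus strand (HIST1H4B, RefSeq H4C2) and chr5:135399232-135399481, minus strand (H2AFY, RefSeq MACROH2A1).
HIST1H1C: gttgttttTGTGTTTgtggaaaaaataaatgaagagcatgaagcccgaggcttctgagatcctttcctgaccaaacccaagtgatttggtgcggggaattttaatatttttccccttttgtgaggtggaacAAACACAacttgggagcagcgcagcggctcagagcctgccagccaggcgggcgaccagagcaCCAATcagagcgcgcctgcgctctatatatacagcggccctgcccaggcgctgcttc
HIST1H1E: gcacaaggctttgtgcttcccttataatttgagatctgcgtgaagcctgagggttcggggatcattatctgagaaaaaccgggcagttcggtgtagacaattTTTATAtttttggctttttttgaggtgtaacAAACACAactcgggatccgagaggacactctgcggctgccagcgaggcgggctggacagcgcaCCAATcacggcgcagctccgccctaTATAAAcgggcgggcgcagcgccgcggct
HIST1H4B: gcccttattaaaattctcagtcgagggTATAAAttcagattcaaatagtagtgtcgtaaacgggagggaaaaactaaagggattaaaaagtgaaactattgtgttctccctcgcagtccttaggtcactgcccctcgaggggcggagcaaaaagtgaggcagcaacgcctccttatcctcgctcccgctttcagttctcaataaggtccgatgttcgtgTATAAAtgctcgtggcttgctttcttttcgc
H2AFY: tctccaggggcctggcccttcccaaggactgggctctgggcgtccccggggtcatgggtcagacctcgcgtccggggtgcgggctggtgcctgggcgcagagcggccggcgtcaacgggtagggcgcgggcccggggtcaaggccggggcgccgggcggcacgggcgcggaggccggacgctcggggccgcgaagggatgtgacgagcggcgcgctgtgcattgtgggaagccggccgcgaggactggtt

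A promoter entry was found for 46 cluster and 9 variant genes. AAACACA, or TGTGTTT on the other strand, was in all 4 H1 promoters and in none of the other 42 cluster promoters, against 4.95% of 27305 promoters of all genes. CCAAT or ATTGG was in all 37 cluster promoters of types H1, H2A, H2B and H3 and in none of the 9 H4 promoters, against 33.0% of all promoters. TATAAA or TTTATA was in 32 of 46 cluster promoters and 4 of 9 variant promoters, against 11.1% of all. The octamer, ATTTGCAT or ATGCAAAT, was in 10 of 15 H2A and 6 of 10 H2B promoters and in 1 of the other 21 cluster promoters, against 1.66% of all. No motif searched is part of another. Some neighbouring genes lie so close that their windows can hold the same DNA, so these counts are not all of separate stretches. On chromosome 6, HIST1H2BJ ends at base 27132795 and HIST1H2AG starts at 27133043. HIST1H3D, the 1 other cluster gene with the octamer, ends at the same base as HIST1H2AD, 26199293. A match says only that the letters stand in this window. A link between these letters and the values of the precipitates was not tested.

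Values below are in RPM, the reads of a row in a library scaled to 1000000 reads, from whole reads recovered from the deposited normalized values. Recovered reads ran from 7139669 to 47871438 in the 22Rv1 precipitates and Input, from 490879 to 4424105 in 22Rv1 IgG, and from 6367908 to 7506724 in LNCaP Brg1 and Input. The LNCaP IgG libraries hold 22184 and 46297 reads, so they are given as values without a row-by-row test. Libraries also differed in the percent of reads on .primary rows, which was 65.7% and 62.7% in 22Rv1 Brg1, 27.5% and 33.4% in Sfpq and 38.2% and 34.8% in Input, and 50.8% and 60.5% in LNCaP Brg1 against 42.3% and 35.2% in Input. Because 49 of the 50 cluster rows of 22Rv1 have no such ending, a share of all reads moves with that percent, and each main result is also given among rows without the ending. Fold changes are differences of mean log2(RPM + 0.5), tested with limma and Benjamini-Hochberg adjustment over all rows, and a row is called at an adjusted p under 0.05. Of 9 prostate luminal markers, 6 have a row in 22Rv1 and all 9 have one in LNCaP, and their summed level in Input was 222 and 229.8 in 22Rv1 and 4779 and 4689 in LNCaP. Of 9 markers of leukocytes, fibroblasts, endothelium and basal epithelium, 1 and 3 have a row, with 17.6 to 20.0 in 22Rv1 Input and 54.9 to 56.1 in LNCaP Input.

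In 22Rv1, the cluster histone RNAs together took a smaller share of the Brg1 and Sfpq libraries than of Input. Their summed level was 10854 and 11189.5 RPM in the Input libraries, 5424 and 7163 in Brg1 and 9115 and 7996 in Sfpq. Both precipitates lay below both Inputs, with means of 6294 ± 1229.6 (SD, n = 2) for Brg1 and 8556 ± 791 (SD, n = 2) for Sfpq against 11022 ± 237 (SD, n = 2). The ratio to Input was 0.571 for Brg1 and 0.776 for Sfpq.

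Counted among reads on rows without the ending, the picture changed for Brg1 but not for Sfpq. The cluster rows then took 17570.3 and 17154 RPM in Input, 15800.3 and 19223 in Brg1 and 12319.5 and 11786 in Sfpq. The Brg1 libraries lay on either side of Input (ratio 1.01), while both Sfpq libraries stayed below it (ratio 0.694). The 15 variant rows summed to 1665 and 1767 RPM of all reads in Input, 1073 and 1168 in Brg1 and 1633 and 1386 in Sfpq, a ratio of 0.653 for Brg1 and 0.880 for Sfpq. Among reads on rows without the ending, the variant rows without it took 2123 and 2158 in Input, 1927 and 2037 in Brg1 and 1894 and 1709.8 in Sfpq. Both precipitates lay below Input there too, but the order of the ratios turned, to 0.926 for Brg1 and 0.842 for Sfpq.

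In LNCaP the cluster share was not lower with Brg1. The summed level was 2340.4 and 2923 RPM in Input and 3578 and 2649 in Brg1, so the groups overlapped, with a ratio of 1.18. Among reads on rows without the ending it was 3941 and 4421 in Input and 7121 and 6517 in Brg1, with both Brg1 libraries above both Inputs and a ratio of 1.63. On the authors' deposited scale the same summed rows were lower with Brg1, by -1.08 on the log2 scale, and the median of all rows moved by -1.30 from the scale used here, so the direction in LNCaP depends on the scale. The LNCaP variant rows were at 1065 and 1201 RPM of all reads in Input and 1417 and 1155 in Brg1, which overlapped (ratio 1.14), and at 1363 and 1437 and 1996 and 1781 among reads on rows without the ending, which did not (ratio 1.35).

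**Figure D1:**
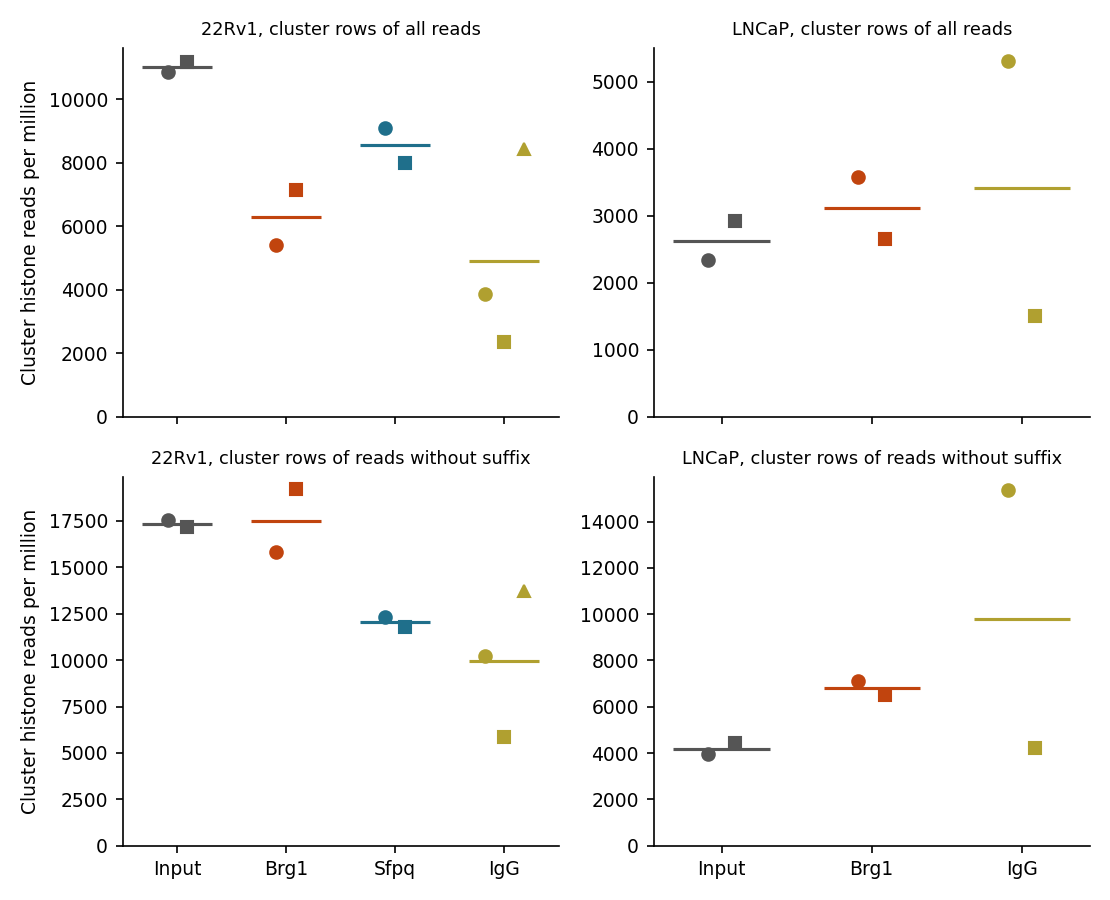
Summed RPM of cluster histone rows, by library, in 22Rv1 (left) and LNCaP (right), as a share of all reads (upper row) and of reads on rows without the .primary ending (lower row). Circles, squares and triangles are replicates A, B and C, and bars are group means; each panel has its own linear axis from 0. In 22Rv1 the Sfpq libraries lie below Input in both shares, both Brg1 libraries lie below both Inputs as a share of all reads, and in the lower panel 1 Brg1 library lies below and 1 above both Inputs.

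The make-up of the cluster reads by histone type differed between precipitates and Input in the same order in both lines, and this measure does not depend on the scale or on the .primary reads of other genes. H1 mRNAs, which encode the linker histones that bind DNA between nucleosomes, took 17.1% ± 0.143 of cluster reads in 22Rv1 Input (mean ± SD of 2 libraries, as for all shares by type), against 23.0% ± 0.852 with Brg1 and 26.0% ± 1.48 with Sfpq. The LNCaP shares were 19.9% ± 0.501 (Input) and 24.9% ± 0.488 (Brg1). Every Brg1 and Sfpq library had a larger H1 share than every Input library of its line.

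H4, a core histone of the nucleosome's central tetramer, went the other way. It took 18.4% ± 1.03 of cluster reads in 22Rv1 Input, 15.5% ± 1.75 with Brg1 and 13.3% ± 0.0946 with Sfpq. For LNCaP the H4 share was 18.5% ± 0.368 (Input) and 15.7% ± 0.0759 (Brg1). H2A, which pairs with H2B at the outer faces of the nucleosome, was placed like H4. It took 24.6% ± 0.668 of cluster reads in 22Rv1 Input, 21.5% ± 0.0594 with Brg1 and 20.1% ± 0.0678 with Sfpq. The LNCaP values for H2A were 23.1% ± 0.161 (Input) and 20.2% ± 0.780 (Brg1).

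For both types every Brg1 and Sfpq library lay below every Input library of its line. The shares of a library add up to a whole, so a larger H1 share by itself lowers those of the other types. Shares among cluster reads without H1 were not taken, so H4 and H2A are not read as separate from H1. H3 differed by less than 0.5 percentage points in all 3 comparisons, with overlapping libraries. H2B was 0.56 to 1.17 points higher in the 3 comparisons, and its libraries overlapped for Brg1 in 22Rv1. These shares sum over genes chosen with results known and carry no test. The 22Rv1 IgG libraries spanned 16.5% to 30.8% for H1 and 9.36% to 19.2% for H4, so they covered the values of Input and of both precipitates, while for H2A they spanned 22.5% to 25.9%, above every Brg1 and Sfpq library. In LNCaP the H2A shares of the IgG libraries were 22.0% (95% Wilson interval 15.5% to 30.3%, of 118 cluster reads) and 17.1% (10.1% to 27.6%, of 70), below both Inputs as with Brg1, although both intervals hold the Input values. Their H1 shares were 23.7% and 17.1% and their H4 shares 13.6% and 21.4%, on either side of Input.

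**Figure D2:**
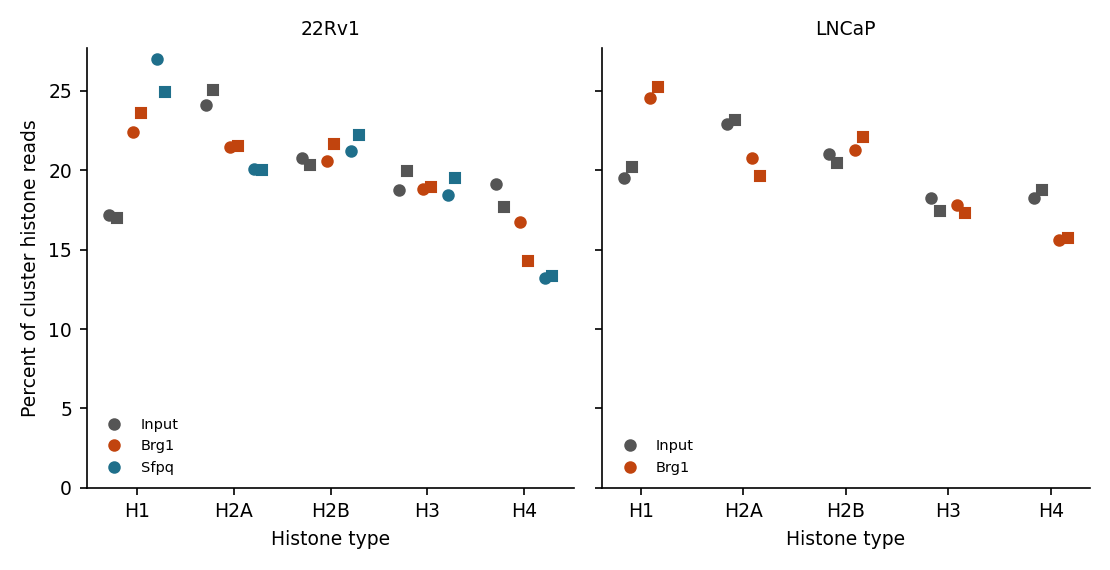
Percent of each library's cluster histone reads that fall on genes of each histone type (horizontal axis), for Input, Brg1 and Sfpq libraries of 22Rv1 (left) and for Input and Brg1 libraries of LNCaP (right). Circles are replicate A and squares replicate B. H1 is higher, and H2A and H4 are lower, in every Brg1 and Sfpq library than in every Input of the same line. The shares of a library add up to a whole, so the types do not move separately. IgG libraries are not drawn.

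Row by row, most histone rows were lower with Brg1 than in Input in 22Rv1. All 67 rows passed the filter on low values (a mean of at least 10 reads), and limma called 52 lower and 5 higher, where 40.6% of all rows were called lower and 27.5% higher. Among the 49 cluster rows without the ending, 41 were called lower and 1 higher, where 74.0% of all 10855 such rows were called lower and 2.41% higher. Their median log2 fold change was -0.85, and that of all rows without the ending was -0.80. In a fit on rows without the ending alone, 11 of 59 histone rows were called lower and 8 higher, where 22.0% of all rows were called lower and 22.0% higher, and the cluster median was -0.04.

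The types were not alike within this contrast. Median log2 fold changes among cluster rows without the ending were -0.39 for 4 H1 rows, -0.77 for 13 H2B rows, -0.84 for 7 H3 rows, -1.002 for 15 H2A rows and -1.12 for 10 H4 rows. In the fit on rows without the ending the H1 median was 0.44, with 3 of 4 H1 rows called higher, and the H4 median was -0.30, with 5 of 10 called lower. With the IgG libraries in the same fit, whose wider spread is then shared, limma called 0 of 67 rows, and 11 had an unadjusted p under 0.05. On the groups of the main comparison, edgeR called 57 and DESeq2 57.

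HIST1H1C (H1.2) and HIST1H1E (H1.4) are the H1 genes with the most reads. HIST1H1C was at 999 and 972 RPM in 22Rv1 Input, 626 and 877 in Brg1 and 1209.7 and 924 in Sfpq. HIST1H1E was at 755 and 815 in Input, 519 and 724 in Brg1 and 1102 and 958 in Sfpq. Brg1 libraries lay below Input for both genes, and neither was called (log2 fold change -0.41 ± 0.18 (SE), adjusted p = 0.056, and -0.36 ± 0.17 (SE), adjusted p = 0.074, limma). HIST1H1E lay above Input in both Sfpq libraries and HIST1H1C in 1 of them (log2 fold changes 0.39 and 0.10, neither called). These calls turn on the rows fitted. With a gene's 2 rows summed throughout the table, which leaves the fold changes of both genes as they are, HIST1H1C and HIST1H1E were called lower with Brg1 (adjusted p = 0.04 and 0.047, limma) and HIST1H1E higher with Sfpq (adjusted p = 0.042, limma). In the fit on rows without the ending both were called higher with Brg1, at 0.42 and 0.47. HIST1H1D (H1.3) was called lower with Brg1, at -0.54 (adjusted p = 0.011, limma).

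HIST2H4A, HIST1H4E and HIST1H4J had the most reads of the H4 genes, whose mRNAs encode the same protein. HIST2H4A was at 899 and 854 RPM in Input, 417 and 462 in Brg1 and 545 and 474 in Sfpq. HIST1H4E was at 249 and 259, 101 and 119.9 and 162 and 137 in the same order. Input, Sfpq and Brg1 did not overlap for either gene and stood in that order from high to low. HIST1H4J changed by -1.19 with Brg1 and -0.89 with Sfpq. The lowest H4 value with Brg1 was that of HIST1H4B, whose promoter is printed above: 182 and 183 in Input, 67.7 and 71.0 in Brg1 and 98.6 and 92.8 in Sfpq, or -1.39 ± 0.13 (SE) with Brg1 (adjusted p = 5.22e-07, limma). HIST1H4D and HIST1H4A followed at -1.27 and -1.23.

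The H2A row with the most reads, HIST2H2AA3, was at 1014 and 1009.6 RPM in Input, 443 and 576 in Brg1 and 666 and 591 in Sfpq. It was called lower in both precipitates (-1.002 with Brg1 and -0.69 with Sfpq). HIST1H2AK had the most negative value of the cluster rows with Brg1, -1.74, at 22.6 and 19.3 in Input and 5.70 and 6.16 in Brg1, and HIST1H2AG was at -1.24. Among H2B rows, HIST2H2BF fell from 571 and 633 in Input to 268 and 375 in Brg1 (-0.92) and was at 548 and 549 in Sfpq (-0.13, not called). HIST2H3C, the H3 row with the most reads, was at 999 and 1067 in Input, 509 and 676 in Brg1 and 834 and 777 in Sfpq, called lower with Brg1 (-0.82) and not with Sfpq (-0.36, adjusted p = 0.064, or 0.036 with row pairs summed, limma).

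HIST2H2BB, which RefSeq lists as a transcribed pseudogene (H2BP2), was the single row with a cluster name called higher with Brg1. It went from 2.19 and 3.62 RPM in Input to 11.4 and 15.0 (2.03, adjusted p = 1.17e-04, limma). It was at 3.22 and 2.58 in Sfpq and has no row in LNCaP.

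Sfpq against Input in 22Rv1 gave 36 histone rows lower and 2 higher, where 36.0% of all rows were called lower and 24.3% higher. HIST1H2BC.primary and H2AFX had higher values while the other row of each gene had a lower one, as described below. With both rows summed, these genes were called lower (-0.40 and -0.43). The contrast with other rows without the ending is in sign: the 49 cluster rows had a median of -0.50 with 29 called lower and 0 higher, while all rows without the ending had a median of 0.22, with 20.1% called lower and 37.9% higher. Of those 49 rows, 1 was higher at an unadjusted p under 0.05 in limma, and over all 67 histone rows edgeR called 2 higher and DESeq2 called 6. In the fit on rows without the ending, 45 of 59 histone rows were called lower and 1 higher, where 25.6% of all rows were called lower and 33.7% higher. By type the medians of cluster rows were 0.17 for H1, -0.32 for H2B, -0.43 for H3, -0.58 for H2A and -0.84 for H4, and 9 of 10 H4 rows were called lower. Limma called 0 of 4 H1 rows in either direction, and 1 of them was higher at an unadjusted p under 0.05. With IgG in the same fit limma called 0 of 67 rows, and 4 had an unadjusted p under 0.05, while edgeR and DESeq2 on the groups of the main comparison called 38 and 32.

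Brg1 and Sfpq libraries were also compared directly. Limma called 33 histone rows lower and 7 higher with Brg1 than with Sfpq, where 38.1% of all rows were called lower and 40.0% higher. HIST1H1E was among those lower (-0.74, adjusted p = 9.40e-04, limma), and HIST2H4A was not called (-0.21, adjusted p = 0.19). The direction turned in the fit on rows without the ending, where 2 of 59 histone rows were called lower and 48 higher, against 34.3% of all rows called lower and 30.5% higher. There HIST1H1E was at 0.21 and HIST2H4A at 0.75, and all 49 cluster rows had positive values. Among them, the value of HIST1H2BC, 8.98, describes the change of row given below. On the deposited scale 5 rows were called lower and 6 higher, where 22.0% of all rows were called lower and 30.0% higher. The count of calls was 21 without Brg1 replicate A, 26 without Sfpq replicate A, and 2 with IgG in the same fit. No order of Brg1 and Sfpq on the cluster rows therefore holds under every scale tried.

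In LNCaP, Brg1 against Input gave few calls among the histone rows. Of 73 rows, limma called 4 lower and 5 higher, where 14.0% of all rows were called lower and 12.9% higher. The 50 cluster rows without the ending had a median of 0.12, against -0.29 for all rows without the ending. Medians by type were 0.61 for 3 H1 rows, 0.27 for 14 H2B rows, 0.20 for 8 H3 rows, -0.04 for 15 H2A rows and -0.07 for 10 H4 rows. In the fit on rows without the ending, 35 of 61 histone rows were called higher and 1 lower, where 20.3% of all rows were called higher and 5.81% lower. Limma with IgG in the same fit called 0 of 73 rows, and 2 had an unadjusted p under 0.05; edgeR and DESeq2 on the 4 Brg1 and Input libraries called 8 each. The count was 3 without Input replicate B and 5 without Input replicate A. On the deposited scale 67 rows were called lower and 1 higher, where 83.0% of all rows were called lower and 0.257% higher.

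HIST1H1E rose from 136 and 187 RPM in LNCaP Input to 286 and 227 in Brg1 (0.67 ± 0.26 (SE), adjusted p = 0.039, limma). HIST1H1C was at 198 and 248 and 352 and 256 (0.44, not called), and HIST1H1B at 123 and 156 and 239 and 186 (0.61, not called, but called with row pairs summed at adjusted p = 0.017, limma). Both Brg1 libraries lay above both Inputs for the 3 H1 genes. On the deposited scale all 3 had negative values, -0.93 for HIST1H1C, -0.76 for HIST1H1B and -0.70 for HIST1H1E. HIST2H4A was at 141 and 174 in Input and 175 and 147 in Brg1, and HIST1H4E at 78.5 and 97.8 and 106 and 74.5, so the groups overlapped for both H4 genes.

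**Figure D3:**
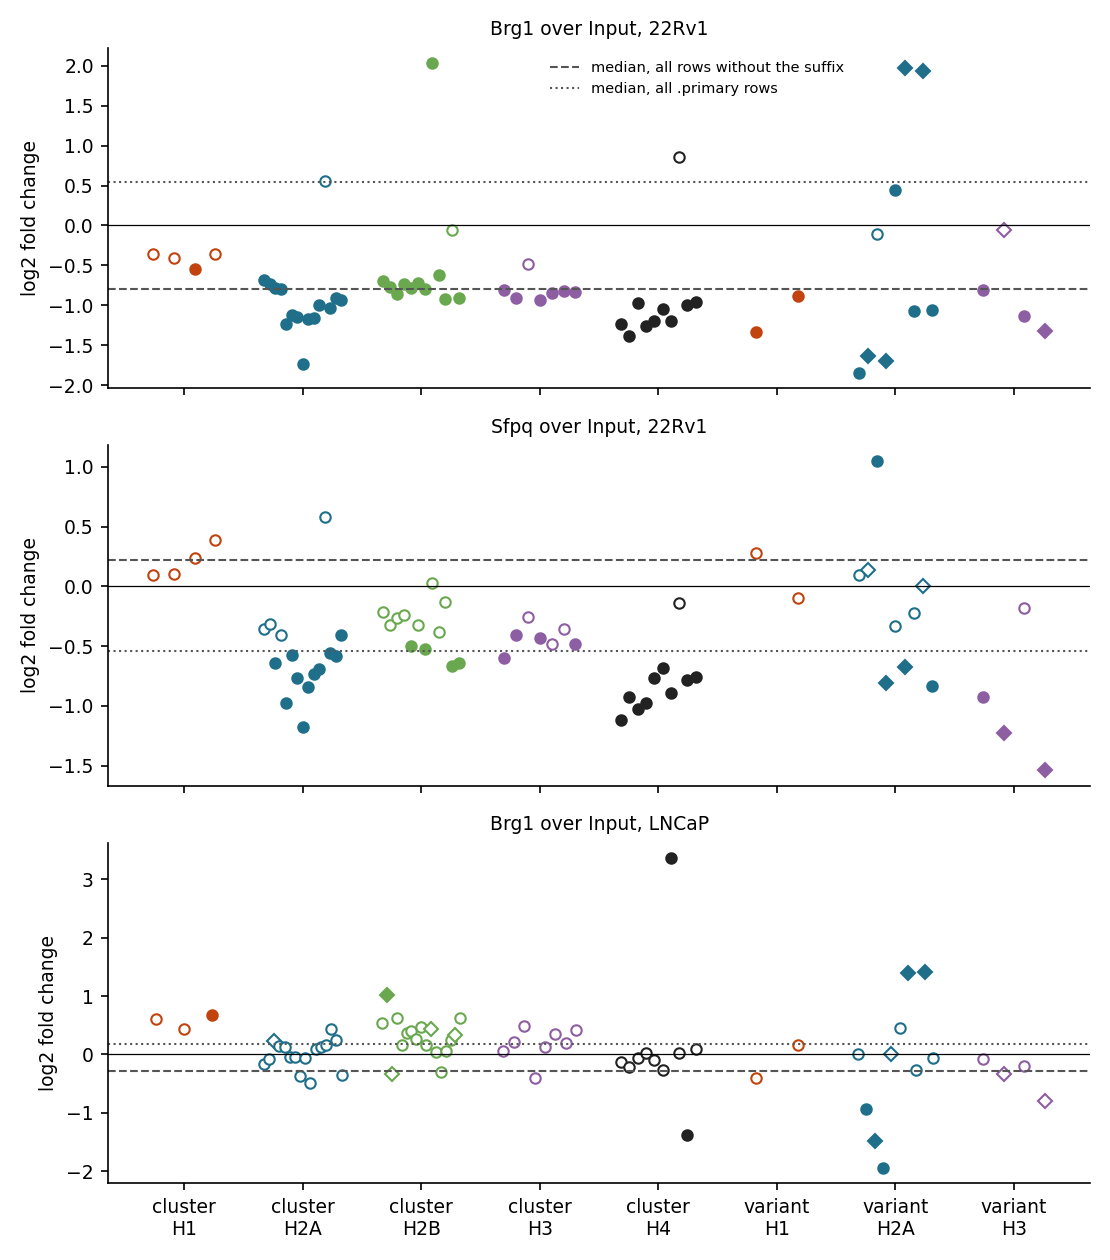
Log2 fold change of each histone row over Input, by class and histone type, for Brg1 in 22Rv1 (top), Sfpq in 22Rv1 (middle) and Brg1 in LNCaP (bottom). Circles are rows without the .primary ending, diamonds are .primary rows, and filled symbols were called by limma; both HIST1H2BC rows and the 2 rows kept apart are not drawn. In each panel cluster H1 rows lie above most cluster H2A and H4 rows, and the dashed and dotted lines show the medians of all rows without and with the ending.

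Among the variants, the .primary rows of macroH2A1 and macroH2A2 stood apart from the other rows. MacroH2A carries a large extra domain beside its H2A part and is known from silent chromatin. H2AFY.primary was at 49.3 and 53.3 RPM in 22Rv1 Input, 205 and 202 in Brg1 and 33.3 and 30.5 in Sfpq. In LNCaP it was at 109.9 and 90.1 in Input and 246 and 282 in Brg1. Both Brg1 libraries lay far above both Inputs in each line, by 1.98 ± 0.14 (SE) in 22Rv1 (adjusted p = 6.43e-08, limma) and 1.40 ± 0.26 (SE) in LNCaP (adjusted p = 3.09e-06, limma). The same row was lower with Sfpq (-0.68, adjusted p = 6.40e-04, limma). Non-specific IgG lay above both Inputs as well in 22Rv1, at 165, 62.2 and 104, though below both Brg1 libraries. In LNCaP the IgG libraries were at 180 and 21.6, on 4 reads and 1 read.

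H2AFY2.primary followed, at 28.7 and 28.2 in 22Rv1 Input and 112 and 108 in Brg1 (1.93), and 29.2 and 22.0 and 64.1 and 73.2 in LNCaP (1.42). Its 22Rv1 IgG libraries were at 42.0, 95.4 and 61.1, also above both Inputs and below both Brg1 libraries. Neither macroH2A .primary row was called for Brg1 against IgG. Among all .primary rows the median was 0.54 in 22Rv1 and 0.19 in LNCaP, and 3.05% of them in 22Rv1 and 3.20% in LNCaP had a value at or above that of H2AFY.primary. A higher call by itself was common, with 50.9% of all .primary rows called higher with Brg1 in 22Rv1 and 23.1% in LNCaP. The row H2AFY itself was at 78.5 and 98.4 in 22Rv1 Input and 115 and 124 in Brg1 (0.44, adjusted p = 0.018, limma), whereas most rows without the ending fell. In LNCaP it was at 151 and 171 and 245 and 197 (0.45, not called). With both rows of a gene summed, the log2 fold changes were 1.21 (22Rv1) and 0.89 (LNCaP) for H2AFY and 0.60 and 0.79 for H2AFY2, all 4 called. The share of all genes called in that fit is not given here. H2AFY2 without the ending was called lower with Brg1 in 22Rv1, with its values given below.

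On the deposited scale H2AFY.primary was at 1.55 in 22Rv1 and H2AFY2.primary at 1.51. In LNCaP they were at 0.03 and 0.058 there and lost their calls, where the median of all rows was -1.38, and H2AFY in LNCaP was at -0.92. The 22Rv1 call of the H2AFY row was lost without Brg1 replicate B (0.38), without Input replicate A (0.28) and on the deposited scale (0.02). Both LNCaP .primary calls were lost without Input replicate B, at 1.26 for H2AFY.primary and 1.22 for H2AFY2.primary.

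H2AFV, 1 of the 2 genes for H2A.Z, had the opposite pattern. Its row was at 95.5 and 98.5 RPM in 22Rv1 Input, 27.0 and 26.3 in Brg1 and 115 and 93.3 in Sfpq, and H2AFV.primary was at 78.3 and 72.5, 23.3 and 24.6 and 86.6 and 79.2. In LNCaP the rows were at 49.8 and 64.7 and 49.5 and 46.6 in Input and 36.9 and 23.7 and 19.0 and 15.0 in Brg1. Brg1 libraries were below Input for both rows in both lines, with no overlap, while Sfpq was near Input. The log2 fold changes with Brg1 were -1.84 and -1.63 in 22Rv1 and -0.93 and -1.48 in LNCaP, all 4 called. Of all .primary rows, 0.471% in 22Rv1 and 0.725% in LNCaP had a value at or below that of H2AFV.primary, and of all rows without the ending 5.37% and 10.3% had one at or below that of H2AFV. The LNCaP call of the H2AFV row was lost with the replicate block (-0.93), in the fit on rows without the ending (-0.46), without Brg1 replicate B (-0.61), without Input replicate A (-1.12) and without Input replicate B (-0.74).

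**Figure D4:**
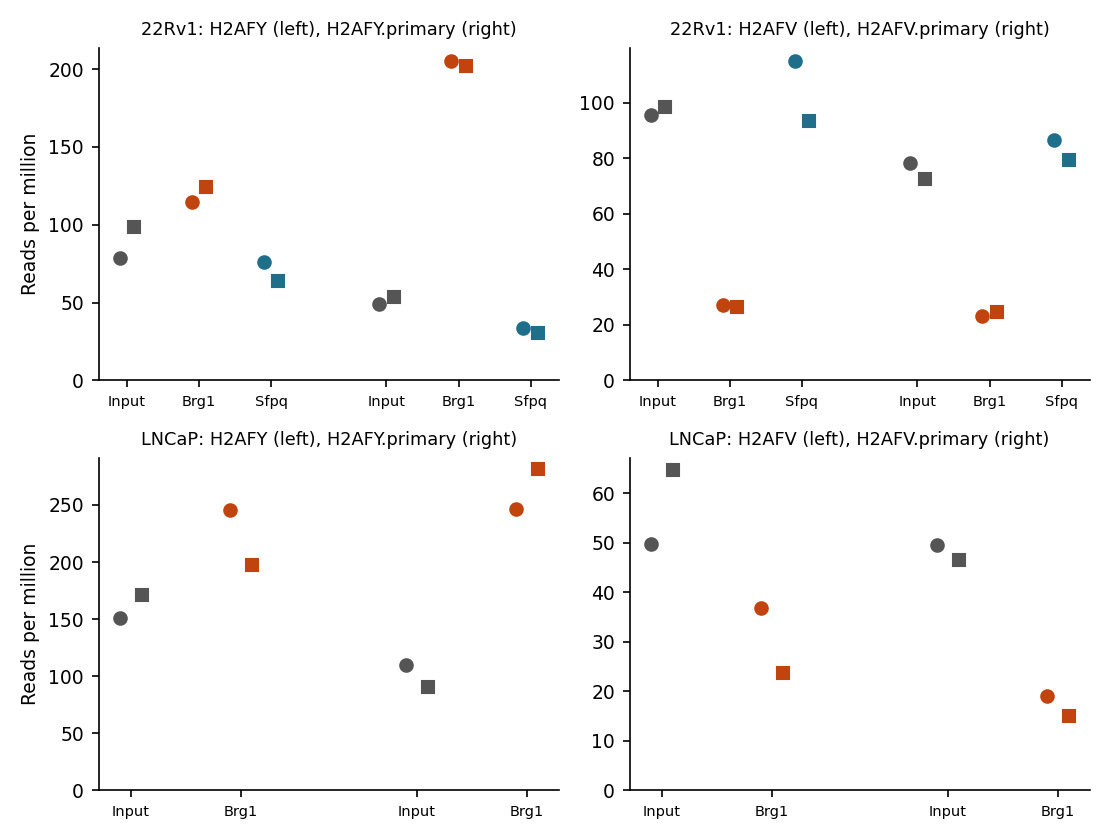
RPM of H2AFY (macroH2A1, left panels) and H2AFV (an H2A.Z gene, right panels) in each library of 22Rv1 (upper) and LNCaP (lower), with the row without the ending at the left of each panel and the .primary row at the right. Circles are replicate A and squares replicate B, on linear axes from 0. IgG libraries are not drawn, and in 22Rv1 they too lay above Input for H2AFY.primary. H2AFY.primary is higher with Brg1 than in Input in both lines (by only 0.03 in log2 in LNCaP on the deposited scale), and both H2AFV rows are lower.

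H2AFZ, the other H2A.Z gene, was at 185 and 207 in 22Rv1 Input, 87.2 and 101 in Brg1 and 127 and 94.4 in Sfpq. It was called lower with both (-1.06 and -0.84), and was at 127 and 151 and 163 and 108 in LNCaP Input and Brg1, where it was not called. The H3.3 gene H3F3A was at 116 and 137, 65.7 and 77.7 and 72.3 and 60.5 in 22Rv1 Input, Brg1 and Sfpq, called lower with both (-0.81 and -0.92). H3F3B, its partner with the same protein, was at 207 and 238, 99.0 and 103 and 213 and 181, called lower with Brg1 alone (-1.13 and -0.18). In LNCaP neither H3.3 gene was called with Brg1 (-0.08 for H3F3A and -0.19 for H3F3B). H3F3A.primary and H3F3B.primary were at no more than 15.7 RPM in the 22Rv1 libraries with Brg1, Sfpq or no antibody, and at -0.05 and -1.32 with Brg1.

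H1F0, a linker histone of resting cells, was at 343 and 350.3 in 22Rv1 Input, 129 and 147 in Brg1 and 454 and 389 in Sfpq, so Brg1 was below Input and Sfpq above it (-1.33, called, and 0.28, not called, but called with row pairs summed at adjusted p = 0.043, limma). H1FX was at -0.88 with Brg1 (called) and -0.10 with Sfpq. In LNCaP, H1F0 and H1FX were at -0.40 and 0.17 with Brg1 and H2AFJ, which has a row there alone, at 0.02, none called. H2AFY2 without the ending was at -1.07 with Brg1 (called) and -0.22 with Sfpq in 22Rv1 and at -0.26 in LNCaP. H3F3AP4, a pseudogene copied from H3F3A, was at -1.22 with Brg1 and -0.92 with Sfpq in 22Rv1, and the antisense row H1FX-AS1.primary was at 0.95 with Brg1 (called), from 3.61 and 4.80 in Input to 8.08 and 8.99. Whether the counting used strand is not given in the sources used here, so reads of H1FX and its antisense row may be mixed.

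The median over cluster rows minus that over variant rows, both without the ending, was 0.21 for Brg1 and -0.32 for Sfpq in 22Rv1 and 0.26 for Brg1 in LNCaP. H2AFX, whose mRNA can end in a stem-loop or a poly(A) tail, is counted with the variants.

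Some rows cannot be read alone. HIST1H2BC was at 223 and 204 RPM in 22Rv1 Input and 99.6 and 144 in Brg1 but at 0.280 and 0 in Sfpq, while HIST1H2BC.primary was at 0.209 and 0.312, 0.295 and 0.199 and 178 and 145. The gene's reads thus stood in 1 row or the other by library, and the fitted values of -8.42 and 7.73 with Sfpq describe that change of row. With both rows summed, HIST1H2BC was at -0.83 with Brg1 and -0.40 with Sfpq, both called (adjusted p = 7.39e-04 and 0.048, limma). H2AFX behaved in part alike: H2AFX was at 1.05 and H2AFX.primary at -0.81 with Sfpq, and H2AFX at -1.94 and H2AFX.primary at 0.00 with Brg1 in LNCaP. Summed, H2AFX was at -1.39 with Brg1 and -0.43 with Sfpq in 22Rv1, both called, and at -0.34 in LNCaP, not called. HIST1H2BD.primary rose in LNCaP from 5.95 and 5.73 to 10.2 and 15.0 (1.02), and the summed gene was at 0.60.

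Histone genes of 1 type are near copies of each other, and how the counting shared reads among them is not given in the sources used here. HIST1H4K was at 0 and 4.26 in LNCaP Input and 9.42 and 24.7 in Brg1 (3.36, called), and at 41.4 and 5.86 in 22Rv1 Input and 22.9 and 36.7 in Brg1. Its values differed as much between replicates as between groups in 22Rv1, and the gene is taken as uncertain. The same holds for HIST2H4B in LNCaP, at 4.25 and 7.46 in Input and 10.7 and 0 in Brg1, and for HIST2H2AA4, a copy of HIST2H2AA3, at no more than 14.4 in the 22Rv1 precipitates. Sums by type do not depend on such sharing within a type.

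IgG bears on what a precipitate holds beyond background, and here its libraries were too uneven for most rows. The summed cluster level was 3884, 2374 and 8452 RPM in the 22Rv1 IgG libraries, a range that holds both Brg1 libraries and 1 of the 2 Sfpq libraries. The 5 rows described next were named because they were so few. Against Input, limma called 5 histone rows lower and 0 higher in IgG, where 7.91% of all rows were called lower and 0.355% higher. For that 0, 4 rows were higher at an unadjusted p under 0.05, edgeR called 1 and DESeq2 called 4. Brg1 against IgG gave 5 higher and 1 lower, where 7.95% of all rows were called higher and 0.927% lower. Sfpq against IgG gave 5 higher and 1 lower, where 8.43% were called higher and 1.58% lower.

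The 5 rows were the same in all 3 comparisons, H1FX-AS1.primary, H3F3B.primary, HIST2H2AA4, HIST2H2BB and HIST4H4. They were the only histone rows with 0 reads in all 3 IgG libraries, so their calls and the bounds below rest on those zeros. HIST2H2AA4 is among the rows taken as uncertain above. Against a floor of 3 reads over the 6666313 reads of the group, HIST4H4 was at least 56.3-fold higher with Brg1, at least 64.1-fold higher with Sfpq and at least 115-fold higher in Input, and HIST2H2BB at least 29.3-fold, 6.44-fold and 5.67-fold higher. The row called lower was H2AFV.primary with Brg1 and H2AFY.primary with Sfpq. Leaving out IgG replicate C, the library with the fewest reads, gave 32 calls against Input, 18 for Brg1 against IgG and 30 for Sfpq against IgG. Leaving out replicate A gave 10, 13 and 11 calls in that order, and leaving out replicate B gave 15, 13 and 9. On the deposited scale 66 of 67 rows were called in each of the 3 comparisons, with IgG lower, where nearly all rows of the table were called so: 99.9% lower and 0.0133% higher for IgG against Input, 99.9% higher and 0.0133% lower for Brg1 against IgG, and 99.7% higher and 0.0133% lower for Sfpq against IgG. In LNCaP the IgG libraries held 118 and 70 cluster reads, or 5319 (95% Wilson interval 4444 to 6366) and 1512 (1197 to 1909.7) RPM, on either side of Brg1 and Input.

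Both cell lines gave Brg1 values for 59 histone rows, with no library in common. Across the 42 cluster rows without the ending, Pearson's r between the 22Rv1 and LNCaP log2 fold changes was 0.73 and Spearman's rho 0.61, and without HIST1H4K 0.46 and 0.58 over 41 rows. Across the 15 variant rows they were 0.68 and 0.56. These are descriptions over genes that share libraries, depth and sequence, and carry no p. The tables were scaled separately, and the medians of the 59 rows were -0.91 in 22Rv1 and 0.06 in LNCaP.

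**Figure D5:**
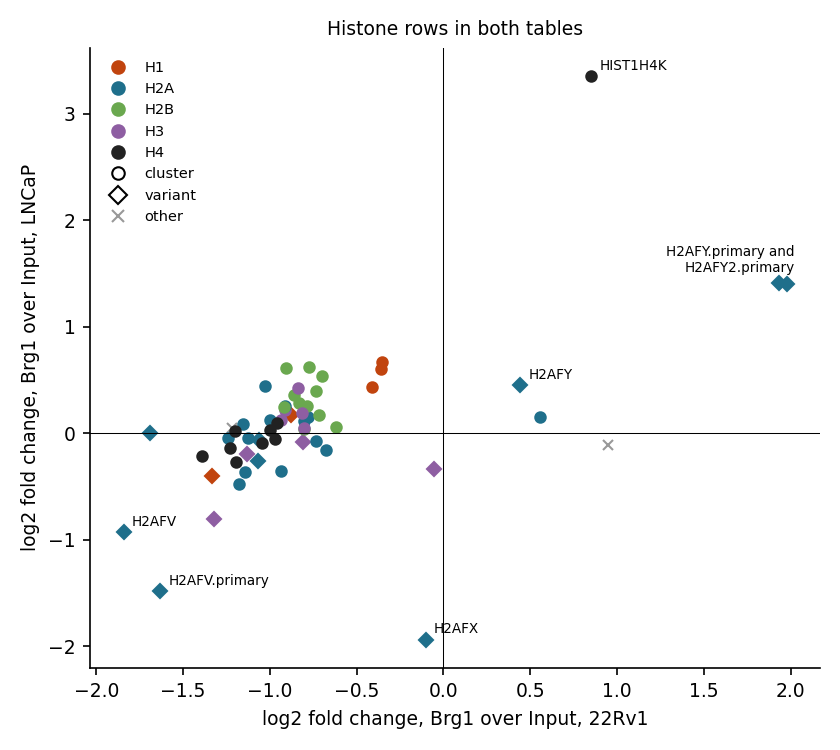
Log2 fold change of Brg1 over Input in 22Rv1 (horizontal) and LNCaP (vertical) for the 59 histone rows in both tables, coloured by histone type, with cluster rows as circles, variant rows as diamonds and the 2 rows kept apart as crosses. The macroH2A .primary rows lie high in both lines, the H2AFV rows low in both, and most cluster rows sit near -1 in 22Rv1 and 0 in LNCaP.

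Genes that make and handle histones were read as 3 fixed lists. Of 18 genes of histone mRNA 3′ end processing and turnover, 14 rows without the ending were called lower by limma and 0 higher with Brg1 in 22Rv1 (median -0.74, beside -0.80 for all such rows), and 0 were higher at an unadjusted p under 0.05. Of all rows without the ending, 74.0% were called lower and 2.41% higher with Brg1, so the list lay near the background. With Sfpq 3 were lower and 9 higher (median 0.39), where 20.1% of all rows without the ending were called lower and 37.9% higher (median 0.22). Of the 15 .primary rows, 11 were lower and 0 higher with Sfpq, where 50.7% of all .primary rows were called lower and 11.8% higher, and 1 was higher at an unadjusted p under 0.05. With Brg1, 2 of these 15 rows were lower and 2 higher, where 9.48% of all .primary rows were called lower and 50.9% higher. The genes named from these lists were chosen after their values were seen. NPAT, the coactivator of histone gene transcription, was at 23.6 and 29.2 RPM in 22Rv1 Input and 98.0 and 81.5 in Sfpq (1.75), and CASP8AP2 (FLASH), which binds the histone cleavage machinery, at 55.2 and 57.5 and 175 and 162 (1.57). NPAT.primary and CASP8AP2.primary went the other way (-1.11 and -0.96), as did most .primary rows with Sfpq (median -0.54 of all such rows). SLBP, the stem-loop binding protein, was at 41.1 and 43.2 in Input, 56.6 and 46.1 in Sfpq and 25.3 and 22.4 in Brg1 (0.27, not called, and -0.81, called).

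Of 16 histone chaperones, which carry histones to and from DNA, 12 rows without the ending were lower and 0 higher with Brg1 (median -0.63), and 0 lower and 9 higher with Sfpq (median 0.43), with 0 rows also at an unadjusted p under 0.05 in the directions counted 0. The shares of all rows without the ending were those just given, 74.0% lower with Brg1 and 37.9% higher with Sfpq. Of 13 chaperone .primary rows, 4 were called lower and 4 higher with Brg1, where 9.48% of all .primary rows were called lower and 50.9% higher. With Sfpq 10 were lower and 0 higher, also 0 at an unadjusted p under 0.05, where 50.7% of all .primary rows were called lower and 11.8% higher. CHAF1A, of the CAF-1 complex that deposits H3 and H4 at replication forks, rose from 110.4 and 115 to 302 and 299 with Sfpq (1.41). CHAF1A.primary went the other way with Sfpq (-0.56, called). HIRA, which deposits H3.3, was at -1.33 with Brg1 while HIRA.primary was at 0.68, both called. Of 16 S phase genes, 9 rows without the ending were lower with Brg1 (median -0.43), and 1 lower and 5 higher with Sfpq (median 0.26). The shares of all rows without the ending were again 74.0% lower with Brg1 and 20.1% lower and 37.9% higher with Sfpq. Of the 16 S phase .primary rows, 3 were lower and 1 higher with Brg1, and 15 lower and 1 higher with Sfpq. In LNCaP, among rows without the ending, limma called 1 of 17 processing rows lower with Brg1 and 0 higher. It called 1 of 16 chaperone rows lower and 0 higher. Of all rows without the ending, 20.1% were called lower and 2.10% higher, and the medians of these lists were 0.08 and -0.16. At an unadjusted p under 0.05, 1 row of each list was higher. Limma called 0 of 15 S phase rows without the ending, with a median of 0.37, and 5 were higher before adjustment at p under 0.05. Of the .primary rows, 2 of 15 processing, 2 of 13 chaperone and 1 of 15 S phase rows were called lower in LNCaP, and 1 chaperone row higher. Of all .primary rows there, 8.21% were called lower and 23.1% higher. edgeR and DESeq2 counts were not taken for these lists.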

How the data were processed

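RNA immunoprecipitation libraries of 22Rv1 (Brg1, Sfpq, Input, 2 each, IgG 3) and LNCaP (Brg1, IgG, Input, 2 each) were analysed from 1 table per line of normalized signal per gene row, deposited by the authors and scaled separately. The submitters' processing notes name STAR 2.6, Salmon 0.8.2, deepTools 2.5.2, DESeq2 and hg38, with no role or order. How the scaling factors were chosen and what .primary marks are not given in the sources used here. Each column was divided by its smallest positive value, which gave whole reads for 100% of values within 0.001 read. Depth was 490879 to 47871438 reads in 22Rv1 and 22184 to 7506724 in LNCaP. Rows with a mean of at least 10 reads were tested with limma 3.58.1 (R 4.3.3, eBayes with trend) on log2(RPM + 0.5), with Benjamini-Hochberg adjustment over all rows. The 22Rv1 fit held Brg1, Sfpq and Input, with IgG added for its own contrasts, and the LNCaP fit held Brg1 and Input. Brg1 and Sfpq share the Input libraries, so their changes were not correlated.

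Histone rows, lists (3' end processing and turnover, chaperones, S phase, luminal and other cell type markers) and tests were chosen with earlier results of these data known. Named rows are every variant row, the 5 largest and 5 smallest changes among cluster rows with at least 5 RPM, and the 3 cluster rows of each type with most Input reads. Floors use 3 reads, and they and the 95% Wilson intervals cover counting error only. Alternatives were pseudocounts of 0.1 and 5, no filter or 50 reads, deposited and TMM scaling, rows without .primary alone, all groups in 1 fit, a replicate block, edgeR 4.0.16, DESeq2 1.42.0 and leaving out each library; summing row pairs and crossing the LNCaP block letters were added after seeing the data. The fits were tested on simulated data. Python 3.11.15 with pandas 2.3.3, numpy 2.4.6, scipy 1.17.1 and matplotlib 3.10.9 was used for the rest.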

Additional observations from a re-analysis of the deposited data

Results flagged for a closer look

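With Brg1 against Input, 9 of the 59 histone rows in both tables and the summed cluster H1 reads moved one way in every library of 22Rv1 and the other way in every library of LNCaP. The 22Rv1 and LNCaP log2 fold changes were -0.36 and 0.61 for HIST1H1B, -0.41 and 0.44 for HIST1H1C, -0.36 and 0.67 for HIST1H1E and -0.37 and 0.56 for the summed H1 share. They were -0.70 and 0.54 for HIST1H2BD, -0.77 and 0.62 for HIST1H2BF, -0.73 and 0.40 for HIST1H2BK, -0.91 and 0.62 for HIST3H2BB and -0.84 and 0.43 for HIST2H3D, and the antisense row was the only one higher in 22Rv1, with 0.95 and -0.11 for H1FX-AS1.primary. The difference between the lines was not tested, and the tables were scaled separately. The median of all rows without the ending also differed, at -0.80 in 22Rv1 and -0.29 in LNCaP. The share of all rows in both tables that move apart in this way is not given here. The 9 of 59 is therefore not read as a trait of histone rows. All 9 rows had opposite signs with TMM scaling too, 1 of 9 (H1FX-AS1.primary) on the deposited scale, and 2 of 8 (HIST2H3D and HIST3H2BB) in the fit on rows without the ending.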

How the results depend on the processing

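Counts of histone rows called moved with the libraries in the fit, the scale and the rows fitted. For Brg1 against Input in 22Rv1 (57) they were 19 among rows without .primary and 0 with all groups in 1 fit, and leaving out 1 library gave 52 to 59. For Sfpq against Input (38) they were 0 with all groups in 1 fit and 28 to 42 leaving out 1 library. For Brg1 against Sfpq (40) they were 11 on the deposited scale, 2 with all groups in 1 fit and 21 to 48 leaving out 1 library; among rows without .primary 50 were called, but 48 of them higher, against 7 of 40. For IgG against Input (5) they were 66 on the deposited scale, 3 among rows without .primary, 9 with DESeq2 and 5 to 32 leaving out 1 library. For Brg1 against IgG (6) they were 66 deposited, 10 with DESeq2 and 4 to 18, and for Sfpq against IgG (6) 66 deposited and 4 to 30. For LNCaP Brg1 (9) they were 68 deposited, 36 among rows without .primary, 0 with all groups in 1 fit and 3 to 11. The cause was not tested. Where no share of all rows called is given above for a setting, its count shows only how far calls moved. The median of all rows moved from the scale used here by -0.41, -0.49, 0.09 and -1.30 on the deposited scale for Brg1 and Sfpq against Input, Brg1 against Sfpq and LNCaP Brg1, and by 0.23, 0.15, 0.08 and 0.08 with TMM; for IgG against Input, Brg1 against IgG and Sfpq against IgG it moved by -4.07, 3.53 and 3.48 deposited and by 0.32, -0.12 and -0.16 with TMM.

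With a replicate block the counts were 59, 38 and 39 for Brg1 against Input, Sfpq against Input and Brg1 against Sfpq, 31, 17 and 25 for the IgG comparisons in the order above, and 5 for LNCaP Brg1. Samples share only a letter: their deviations correlated at 0.005 (Brg1 and Input), -0.045 (Brg1 and Sfpq) and -0.13 (Input and Sfpq) in 22Rv1 and -0.33 in LNCaP. With the LNCaP block letters crossed, an alternative added after seeing the data, 21 rows were called. Shares of all rows called are not given for the block fits either.

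The log2 ratio of the cluster share was -1.26 deposited, 0.012 over reads on rows without .primary and -1.02 to -0.62 leaving out 1 library for 22Rv1 Brg1 (-0.81). It was -0.84, -0.53 and -0.46 to -0.27 for Sfpq (-0.37), -1.08 (deposited), 0.71 and 0.01 to 0.44 for LNCaP Brg1 (0.24), -8.66 deposited and -1.82 to -0.84 for 22Rv1 IgG (-1.17), and -10.75 deposited and -0.80 to 1.02 for LNCaP IgG (0.38). The cluster minus variant median ranged from 0.087 to 0.23 for 22Rv1 Brg1, -0.45 to -0.27 for Sfpq and 0.19 to 0.31 for LNCaP Brg1 leaving out 1 library, and in LNCaP was 0.26 and 0.25 with pseudocounts of 0.1 and 5, 0.27 with 50 reads and 0.29 over all histone rows.

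Among the named rows, changes of sign with a call in the main fit or in the alternative were as follows. Other histone rows changed sign too, such as HIST1H1B with Brg1 in 22Rv1, from -0.36 to 0.46 among rows without .primary. Among rows without .primary, Brg1 in 22Rv1 gave H3F3A 0.012, HIST3H2BA 0.75, HIST1H1C 0.42, HIST1H1E 0.47, HIST1H1D 0.28, HIST1H2BD 0.12, HIST2H2BE 0.20, HIST2H3C 0.012, and in LNCaP H2AFZ 0.41, H3F3A 0.39, HIST1H2AG 0.43. On the deposited scale LNCaP Brg1 gave H1FX -1.20, H2AFJ -1.31, H2AFX.primary -1.36, H2AFY -0.92, HIST1H2BF -0.72, HIST1H1E -0.70, HIST1H2BD.primary -0.27, HIST1H1C -0.93, HIST1H1B -0.76, HIST2H2AA3 -1.25, HIST2H2AC -1.10, HIST2H2BF -1.12, HIST2H2BE -1.30, HIST1H2BD -0.83, HIST2H3C -1.18, HIST1H3B -1.15, HIST1H3H -1.23, HIST2H4A -1.34, HIST1H4E -1.34. HIST2H4B in LNCaP (-1.38) ranged from -3.62 without Brg1 replicate A to 0.86 without Brg1 replicate B.

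With 2 libraries a group, spread is poorly known, and LNCaP IgG is too shallow for a test by row. Reads shared between near-identical histone genes limit single rows more than sums by type.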
